A study of Mus musculus with 6 samples.

Results

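The genes examined here encode the core machinery that passes calcium from the endoplasmic reticulum into mitochondria: the inositol trisphosphate receptors Itpr1, Itpr2 and Itpr3, the reticulum calcium pump Atp2a2 (SERCA2), the voltage-dependent anion channels Vdac1, Vdac2 and Vdac3, and the uniporter pore Mcu. They were taken by gene symbol for their place in the calcium path, by a rule that uses no measured value but was set with earlier results of these data known, and all 8 were found among the 24421 genes of the deposited table. RNA was sequenced from 2 libraries of Pml-/- and 2 libraries of wild-type E14 mouse embryonic stem cells. All 4 came from cells treated with 10 µM paraquat, a redox cycler that produces superoxide, for 15 h. The medium of all cells held serum, LIF (leukemia inhibitory factor) and a pair of kinase inhibitors, CHIR99021 against GSK3 and PD0325901 against MEK. The comparison is therefore between cells without and with intact Pml under the same treatment, and the response to paraquat itself was not measured. The labels do not say which part of Pml was disrupted or whether the knockout line is a single clone. The 2 other samples of the series, PML-associated chromatin from cells with an APEX-PML knock-in, were not analysed here.

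At sites where the endoplasmic reticulum touches mitochondria, inositol trisphosphate receptors release calcium that crosses the outer mitochondrial membrane through voltage-dependent anion channels and enters the matrix through the uniporter, while SERCA pumps refill the reticulum. Matrix calcium stimulates several dehydrogenases, and an excess of it promotes cell death. PML, best known as the scaffold of nuclear bodies, has also been placed at these contacts in mouse fibroblasts, where it was linked to Itpr3, to the kinase AKT and to the phosphatase PP2A; that work concerns proteins and their phosphorylation, which RNA levels do not report.

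The libraries held 38150397 and 43715807 reads in Pml-/- cells and 31384794 and 44130093 reads in wild-type cells. Pml itself was at 78.7 and 89.7 CPM (reads scaled to a library of 1000000) in Pml-/- cells, against 238 and 228 CPM in wild-type cells, a mean of 84.2 ± 7.80 CPM against 233 ± 7.495 CPM (SD, n = 2 each) and in the direction of the labels (log2 fold change -1.46, limma adjusted p = 4.43e-10). The stem cell label was checked with pluripotency markers, of which 8 of 8 were tested, with a summed level of 6891 and 6903 CPM in Pml-/- cells and 6723 and 6837 CPM in wild-type cells, and the summed fibroblast markers stayed between 13.7 and 15.7 CPM in the 4 libraries, with no read for Dcn. Among the pluripotency markers Zfp42 was lower in Pml-/- cells (log2 fold change -0.27, limma adjusted p = 0.00251) and Tfcp2l1 was higher (0.29, limma adjusted p = 0.0241, but 0.515 with DESeq2). Of the 8 markers 1 thus passed as lower and 1 as higher, where 3.45% and 1.95% of all tested genes did. At an unadjusted limma p under 0.05 there were 5 of 8, against 19.3% of all tested genes. The sums do not show such opposite changes. Zfp42 lies on chromosome 8, where 52 of 680 tested genes passed as lower, against 439 of all 12710. The summed primitive endoderm markers lay between 8.04 and 10.96 CPM. The summed mesoderm and neuroectoderm markers were at 54.4 and 53.8 CPM in Pml-/- cells and 70.2 and 74.0 CPM in wild-type cells, with Nes and Sox1 lower (limma adjusted p = 0.00199 and 0.0105). These were 2 of 4 tested markers, where 3.45% of all tested genes passed as lower. The part of such cells in the results below was not tested. In bulk RNA, fewer cells of a type and less RNA per cell cannot be told apart. The label of wild-type replicate 2 names a kit for DNA libraries in place of the RNA kit, so values without that library are given where they matter. No label states whether libraries of one genotype are separate cultures; p-values therefore reflect the spread of these samples alone, and that spread may be technical. The 4 tested genes of chromosome Y were all lower in Pml-/- cells (median log2 fold change -4.15), a second difference between the lines that cannot be told apart from the Pml genotype here.

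None of the calcium transfer genes passed the test between Pml-/- and wild-type cells. The intervals given below reflect the spread of these libraries, which may be technical. They do not bound a difference between separate cultures or clones. Of the 8 genes, 7 had a mean of at least 1 CPM and were tested; Itpr2 did not. With limma on log2(CPM + 1), a scale that understates the differences of low genes, 0 of 7 passed an adjusted p of 0.05, where 5.41% of all 12710 tested genes passed (1.95% higher and 3.45% lower in Pml-/- cells). At an unadjusted p under 0.05, 1 of the 7 was found, Mcu, against 19.3% of all tested genes. Count tests on the recovered reads gave 0 of 8 with edgeR (4.19% of all genes it tested) and 0 of 8 with DESeq2 (3.61%). The authors' deposited table holds 0 of 8 at a false discovery rate under 0.05. Its share of 3.8% is over all 24421 genes, 5660 of them without a read, so it is not like the shares above. Of its 927 calls, 824 average 1 CPM or more. The 7 tested genes had a median log2 fold change (Pml-/- minus wild type, called log2 change below) of -0.03 and a median absolute one of 0.04, beside -0.0029 and 0.09 over all tested genes. All 8 genes together took 2189 and 2174 CPM in Pml-/- cells and 2181 and 2191 CPM in wild-type cells.

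**Figure D1:**
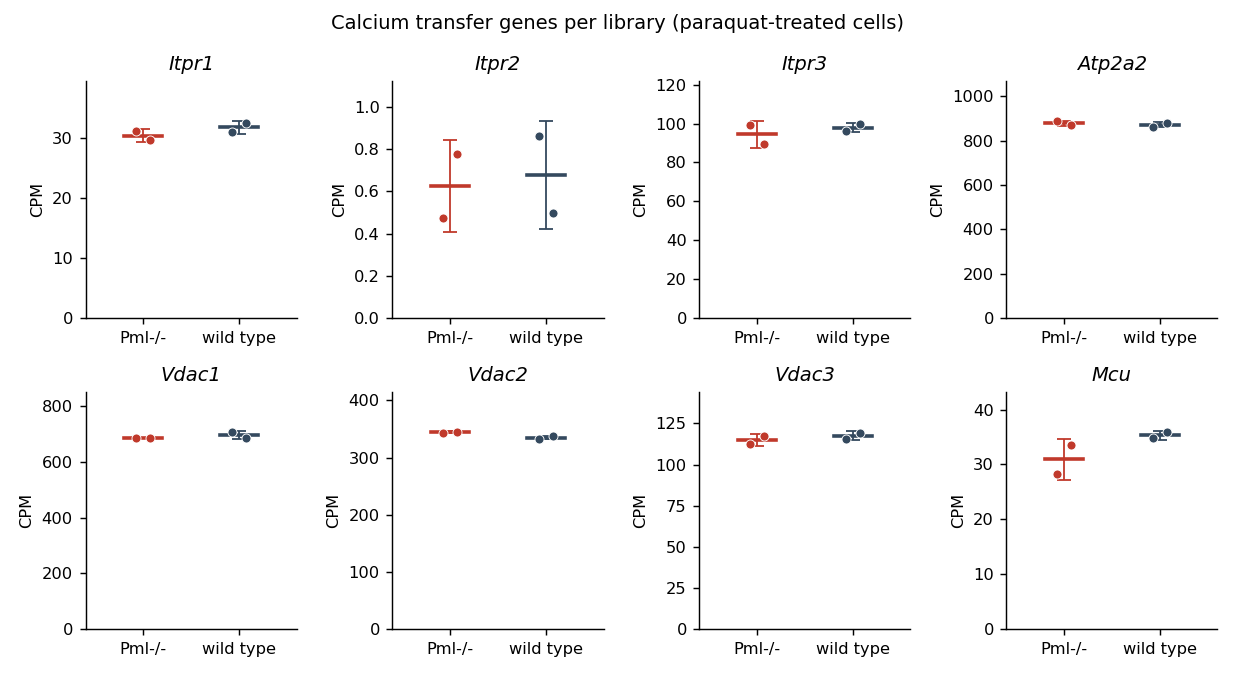
Level of each calcium transfer gene in CPM (vertical axis, from 0, a separate scale per gene) in Pml-/- and wild-type cells; points are the 2 libraries of each group, thick bars the mean and thin bars the SD. The libraries of the groups overlap for all genes except Vdac2 and Mcu. Of all tested genes 49.3% do not overlap.

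The inositol trisphosphate receptors are the release channels of the reticulum. Itpr1 (chr6:108213083-108551116, mm10), the form known for its role in neurons, was read at 31.1 and 29.7 CPM in Pml-/- cells and at 30.9 and 32.6 CPM in wild-type cells. The groups overlapped, with a mean of 30.4 ± 1.02 CPM in Pml-/- and 31.8 ± 1.15 CPM in wild-type cells (SD, n = 2 each). The log2 fold change was -0.06 (SE 0.07, limma adjusted p = 0.718), with a 95% interval of -14.2% to 7.06% for Pml-/- relative to wild-type cells, the form in which intervals are given below.

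Itpr3 (chr17:27057002-27122223), the receptor that PML was linked to at the contacts, stood at 99.4 and 89.3 CPM in Pml-/- cells and at 96.2 and 99.7 CPM in wild-type cells. Both wild-type values lay within or just above the range of the knockout pair, and the lowest value was that of Pml-/- replicate 2. The log2 fold change was -0.05 (SE 0.06, limma adjusted p = 0.678), with a 95% interval of -11.7% to 5.06%. It changed sign, to 0.02, without Pml-/- replicate 2.

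Itpr2 (chr6:146108299-146502258), the third receptor, was close to the limit of these libraries. It had 18 and 34 reads in Pml-/- cells and 27 and 22 reads in wild-type cells, or 0.47 and 0.78 CPM against 0.86 and 0.50 CPM. Its ratio of Pml-/- to wild type over the summed reads was 0.979. The exact 95% interval was 0.650 to 1.48 (Clopper-Pearson on the split of reads, counting error only). The coefficient of variation was 34.6% in Pml-/- and 37.7% in wild-type cells, where counting error gives 20.6% and 20.3%. The interval is therefore not a limit of detection, and a larger difference of Itpr2 could also have been missed. Fitted with all genes that had a read, its log2 fold change was -0.05 (limma adjusted p = 0.918).

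The makeup of the receptor pool overlapped between the groups for each of the 3 genes. Of all reads of the 3 receptor genes, Itpr3 took 75.9 and 74.6% in Pml-/- cells and 75.1 and 75.1% in wild-type cells, and Itpr1 took 23.7 and 24.8% against 24.2 and 24.5%. Itpr2 took 0.360 and 0.649% against 0.672 and 0.375%. These are shares of reads, not of transcripts, since CPM is not divided by transcript length; they can be compared between libraries but do not rank the genes by transcript number.

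Atp2a2 (chr5:122453513-122502225) encodes the SERCA pump that returns calcium to the reticulum in most cell types. It stood at 887 and 869.8 CPM in Pml-/- cells and at 863 and 879 CPM in wild-type cells, from 27095 to 38806 reads per library. The groups overlapped, and the log2 fold change of 0.01 (SE 0.04, limma adjusted p = 0.914) had a 95% interval of -5.10% to 7.13%. It changed sign, at a size of 0.0024 or less, without Pml-/- replicate 1 or without wild-type replicate 1.

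The voltage-dependent anion channels are the main passage for calcium and metabolites through the outer mitochondrial membrane. Vdac1 (chr11:52360851-52389397), the form that is coupled to the receptors through the chaperone Hspa9, was at 687 and 687 CPM in Pml-/- cells and at 706 and 687 CPM in wild-type cells. Its log2 fold change was -0.02 (SE 0.04, limma adjusted p = 0.853), with a 95% interval of -7.13% to 4.87%. The closeness of the knockout pair (SD 0.088 CPM) was below the counting error of 0.598% and is no measure of precision.

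Vdac2 (chr14:21831561-21845879), which also holds the death protein BAK at mitochondria, was at 343 and 346 CPM in Pml-/- cells and at 333 and 337 CPM in wild-type cells. Both knockout libraries were above both wild-type libraries, as is true in some direction of 49.3% of all tested genes. The size was small, at a log2 fold change of 0.04 (SE 0.04, limma adjusted p = 0.672), with a 95% interval of -3.42% to 9.36%.

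Vdac3 (chr8:22577075-22593813), the least studied form, was at 113 and 118 CPM in Pml-/- cells and at 116 and 119 CPM in wild-type cells. Its log2 fold change was -0.03 (SE 0.05, limma adjusted p = 0.799), with a 95% interval of -9.21% to 5.51%, and it changed sign, to 0.00033, without Pml-/- replicate 1. Vdac3 lies on chromosome 8, where the median log2 fold change over 680 tested genes was -0.06. The 3 channel genes summed to 1143 and 1150 CPM in Pml-/- cells and to 1155 and 1143 CPM in wild-type cells. Of these reads Vdac2 took 30.02 and 30.04% in Pml-/- cells and 28.8 and 29.5% in wild-type cells, and Vdac1 took 60.1 and 59.7% against 61.1 and 60.1%.

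**Figure D2:**
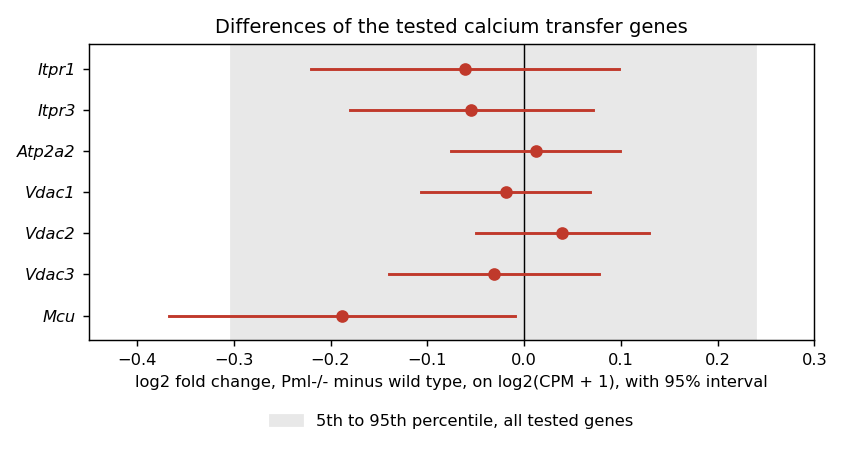
Log2 fold change (Pml-/- minus wild type, on log2(CPM + 1), horizontal axis) of the 7 tested calcium transfer genes with the limma 95% interval; the grey band spans the 5th to 95th percentile of all tested genes, -0.30 to 0.24. Only the interval of Mcu lies to one side of 0, and its adjusted p was 0.233.

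Mcu (chr10:59446984-59617409), the pore through which calcium enters the matrix, was the member nearest to the threshold. It was at 28.3 and 33.6 CPM in Pml-/- cells and at 34.8 and 35.8 CPM in wild-type cells, a mean of 30.96 ± 3.74 CPM against 35.3 ± 0.752 CPM (SD, n = 2 each). Both knockout libraries were below both wild-type libraries, as were 25.5% of all tested genes, and the gap between the knockout libraries was larger than that from the higher of them to the nearest wild-type library. The log2 fold change was -0.19 (SE 0.08, limma unadjusted p = 0.0401, adjusted p = 0.233), with an interval before adjustment of -22.5% to -0.668%.

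The value for Mcu rested on Pml-/- replicate 1. Without that library the log2 fold change was -0.07 (limma adjusted p = 0.723), and without Pml-/- replicate 2 it was -0.31 (limma adjusted p = 0.0852). Without wild-type replicate 2 it was -0.17 (limma adjusted p = 0.409). The authors' deposited table gives a log2 fold change of 0.19 as wild type over knockout, which is the same direction, at a false discovery rate of 0.428. The 2 knockout libraries differed by 12.1% as a coefficient of variation, where counting error alone gives 2.83%.

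The genes whose values over the 4 libraries were most like those of Mcu were Sertm1, Letm2 and Ppp3ca, by Euclidean distance of log2(CPM + 1) centred on each gene's mean (0.020, 0.033 and 0.035). Sertm1 and Letm2 averaged only 1.00 and 1.11 CPM in Pml-/- cells and 1.31 and 1.38 CPM in wild-type cells, where the added 1 CPM shrinks differences: with edgeR their log2 fold changes were -0.37 and -0.30, beside -0.18 for Mcu, so their likeness to Mcu depends on the scale. Ppp3ca, a catalytic subunit of the calcium-activated phosphatase calcineurin, was at 42.1 and 50.5 CPM in Pml-/- cells and at 51.2 and 51.98 CPM in wild-type cells (limma adjusted p = 0.28). Within a distance of 0.1 lay 84 genes.

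Mcu works in a complex whose partners set its opening. None of the 5 tested partners passed (limma, 1 at an unadjusted p under 0.05, and 0 with edgeR and with DESeq2). Micu2, a calcium-sensing gatekeeper, was at 16.9 and 16.8 CPM in Pml-/- cells and at 14.98 and 14.0 CPM in wild-type cells (log2 change 0.21, SE 0.09, limma adjusted p = 0.248). Smdt1, the small subunit EMRE that joins pore and gatekeepers, was at 64.4 and 54.6 CPM in Pml-/- cells and at 64.7 and 60.5 CPM in wild-type cells (limma adjusted p = 0.637). For the pore paralogue Mcub, listed under its older symbol Ccdc109b, no read was found in 157381091 reads, which allows up to 0.0191 CPM (3 reads, counting error only).

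The partners were also set against the pore as reads per read of Mcu. For Micu2 the ratio was 0.598 and 0.5003 in Pml-/- cells, against 0.431 and 0.391 in wild-type cells, higher in both knockout libraries. Micu3, a paralogue of Micu2, gave 0.349 and 0.311 in Pml-/- cells against 0.303 and 0.330 in wild-type cells, and Smdt1 gave 2.28 and 1.62 against 1.86 and 1.69, with overlapping groups in both. Mcur1, a scaffold factor of the uniporter, gave 0.502 and 0.406 against 0.349 and 0.397. All 4 ratios share the low Mcu value of Pml-/- replicate 1, and they were formed with the Mcu values known. With 2 libraries against 2, the smallest two-sided p of an exact permutation test is 0.333, so these ratios are a description.

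**Figure D3:**
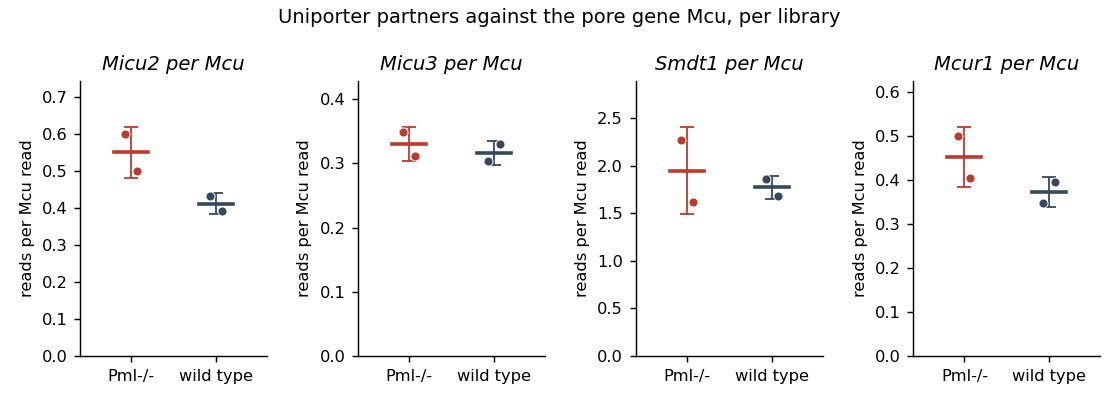
Reads of 4 uniporter partners per read of the pore gene Mcu (vertical axis, from 0, a separate scale per ratio) in Pml-/- and wild-type cells; points are the 2 libraries of each group, thick bars the mean and thin bars the SD. The groups do not overlap for Micu2 and Mcur1. In CPM 49.3% of all tested genes do not overlap, and no such share was taken over ratios.

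Around this core, 12 lists of genes that tether, regulate, fill or empty the path were examined. Of 129 genes 114 were tested, 2 rose and 4 fell in Pml-/- cells, or 5.26%, which is close to the 5.41% called over all tested genes. At an unadjusted p under 0.05 there were 19 of the 114, against 19.3% of all tested genes. The median log2 fold change of all 114 was 0.0051. The 6 genes were Nucb1, Slc8b1, Plcd3, Plcd4, Plce1 and Pdp2, and the calls of 4 of them ended under some of the settings tried.

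Genes of the contacts themselves gave no call. Of the tethers 0 of 13 passed, with 0 at an unadjusted p under 0.05 and 0 by edgeR and by DESeq2, and the median was -0.02. Mfn2, a mitofusin proposed as a tether, was at 51.1 and 48.7 CPM in Pml-/- cells and at 51.6 and 49.8 CPM in wild-type cells. The gene nearest to the threshold was its paralogue Mfn1, at 96.5 and 93.5 CPM against 82.2 and 92.0 CPM (log2 change 0.13, SE 0.06, limma adjusted p = 0.266). Its value was 0.05 without wild-type replicate 1 (limma adjusted p = 0.886) and 0.21 without wild-type replicate 2 (0.0912).

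Known regulators of the receptors gave 0 of 14, with 1 at an unadjusted p under 0.05 and 0 by edgeR and by DESeq2. That gene was Erlin1, which takes part in removing activated receptors, at 40.05 and 41.5 CPM in Pml-/- cells and 35.2 and 36.3 CPM in wild-type cells (log2 change 0.19, SE 0.07, limma adjusted p = 0.141). Bcl2, an inhibitor of receptor release, was under 1 CPM in all 4 libraries. The kinase and phosphatase genes tied to PML at the contacts gave 0 of 11, with 0 at an unadjusted p under 0.05 and 0 by edgeR and by DESeq2. Akt1 was at 47.8 and 51.1 CPM in Pml-/- cells and at 51.6 and 48.2 CPM in wild-type cells, and Ppp2ca, the PP2A catalytic subunit, at 426 and 429.8 CPM against 417 and 424 CPM. Rictor, a subunit of the kinase complex that activates AKT, was nearest to the threshold (log2 change 0.09, SE 0.06, limma adjusted p = 0.441).

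None of the other tested pumps and channels of the reticulum passed the test. Their median log2 fold change was -0.17 over 9 tested genes; 0 passed with limma, edgeR or DESeq2, and 5 had an unadjusted limma p under 0.05, a level reached by 19.3% of all tested genes. Atp2a3, a second SERCA gene, was at 32.7 and 31.0 CPM in Pml-/- cells and at 39.5 and 36.9 CPM in wild-type cells (log2 change -0.25, SE 0.07, limma adjusted p = 0.057). With DESeq2 its adjusted p was 0.145, and the authors' deposited table gives it a false discovery rate of 0.0336. The log2 change of Atp2a3 was -0.30 without wild-type replicate 2 and -0.21 without wild-type replicate 1. Of the reads of all 3 SERCA genes (Atp2a1, Atp2a2 and Atp2a3), Atp2a3 took 3.56 and 3.45% in Pml-/- cells, against 4.37 and 4.03% in wild-type cells.

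The ryanodine receptors are the other family of release channels of the reticulum. For each of them both knockout libraries were below both wild-type libraries, as for 25.5% of all tested genes, and none passed the test. Ryr1 was at 14.9 and 14.5 CPM in Pml-/- cells and at 18.3 and 17.4 CPM in wild-type cells (limma adjusted p = 0.132). Ryr2 was at 13.8 and 13.3 CPM against 15.4 and 18.1 CPM (limma adjusted p = 0.144), and Ryr3 at 6.79 and 5.08 CPM against 7.36 and 7.84 CPM (limma adjusted p = 0.217). The ryanodine receptors were singled out after their values were seen.

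Within the reticulum lumen, 1 of 12 calcium-binding genes rose (1 with edgeR and 1 with DESeq2), beside 1.95% of all tested genes with limma. Nucb1, a calcium-binding protein better known from the Golgi, was at 104 and 114 CPM in Pml-/- cells and at 92.1 and 93.99 CPM in wild-type cells (log2 change 0.23, SE 0.06, limma adjusted p = 0.0265). The call ended without Pml-/- replicate 2 (limma adjusted p = 0.184), without wild-type replicate 1 (0.0965) and with no filter on low values (0.075). Calr, the main calcium buffer of the lumen, was at 1432 and 1494 CPM in Pml-/- cells and at 1523 and 1536 CPM in wild-type cells (limma adjusted p = 0.451). Its log2 change was -0.06, as was the median of chromosome 8, where it lies. List genes of that chromosome lay on both sides of 0, such as Plcg2 at 0.09 and Micu3 at -0.12. Whether the place on chromosome 8 bears on any of the values given here was not tested. Store-operated entry, which refills the reticulum from outside, gave 0 of 6, with 1 at an unadjusted p under 0.05 and 0 by edgeR and by DESeq2: the calcium sensor Stim1 was at 22.4 and 20.6 CPM in Pml-/- cells and 24.5 and 24.9 CPM in wild-type cells (limma adjusted p = 0.218).

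Calcium leaves the matrix again through an exchanger, and its gene fell in Pml-/- cells. Slc8b1 (chr5:120511168-120534024), the mitochondrial sodium/calcium exchanger NCLX, was at 47.4 and 46.0 CPM in Pml-/- cells and at 59.5 and 58.2 CPM in wild-type cells. The 2 groups were well apart, 1.26-fold in the means, with a log2 fold change of -0.33 (SE 0.06, limma adjusted p = 0.00548). It passed without each of the 4 libraries in turn (log2 change -0.35 to -0.31, highest limma adjusted p = 0.0366), and with edgeR and DESeq2. It was the only call among 5 tested genes of matrix ion exchange, beside 3.45% of all tested genes that fell with limma. Letm1, a matrix ion exchange gene also proposed to carry calcium, was at 78.6 and 73.4 CPM in Pml-/- cells and at 76.8 and 83.1 CPM in wild-type cells (limma adjusted p = 0.57). For export out of the cell, 0 of 5 passed, with 0 at an unadjusted p under 0.05 and 0 by edgeR and by DESeq2, and the plasma membrane pump Atp2b1 was at 144 and 139 CPM in Pml-/- cells and at 131 and 138 CPM in wild-type cells.

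Upstream of the receptors, phospholipase C enzymes make the inositol trisphosphate that opens them. With limma 2 of 11 tested genes fell and 1 rose, beside 3.45% and 1.95% of all tested genes. EdgeR called 3 of them and DESeq2 called 1. Plcd3 was at 13.8 and 13.3 CPM in Pml-/- cells and at 20.3 and 19.3 CPM in wild-type cells, 1.46-fold apart in the means (log2 change -0.52, SE 0.09, limma adjusted p = 0.00425), and it passed without each library in turn (highest limma adjusted p = 0.0365). Plcd4 was at 2.62 and 2.56 CPM in Pml-/- cells and at 4.78 and 4.28 CPM in wild-type cells (log2 change -0.62, SE 0.14, limma adjusted p = 0.0202). Plce1, an isoform activated by small GTPases, was at 19.8 and 18.2 CPM in Pml-/- cells and at 14.7 and 14.1 CPM in wild-type cells (log2 change 0.38, SE 0.09, limma adjusted p = 0.0292).

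The calls of Plcd4 and Plce1 did not hold throughout, though the authors' deposited table gives them false discovery rates of 0.000298 and 0.00288. That of Plcd4 ended without Pml-/- replicate 1 (limma adjusted p = 0.0684), Pml-/- replicate 2 (0.112) or wild-type replicate 1 (0.0843), and with DESeq2 (adjusted p = 0.0868) and no filter (0.0957). That of Plce1 ended without Pml-/- replicate 1 (0.143), Pml-/- replicate 2 (0.0673) or wild-type replicate 2 (0.063), and with DESeq2 (adjusted p = 0.0558) and no filter (0.0951). Plcg1 and Plcb3, which couple receptor tyrosine kinases and G proteins to this step, were at 102 and 94.4 CPM and at 117 and 108 CPM in Pml-/- cells, against 108 and 108 CPM and 115 and 109.7 CPM in wild-type cells (limma adjusted p = 0.18 and 0.977).

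Downstream in the matrix, a list of enzymes and carriers tied to matrix calcium held 14 tested genes. With edgeR and with DESeq2 0 passed. With limma 1 fell, beside 3.45% of all tested genes. That gene, Pdp2, encodes a phosphatase that activates pyruvate dehydrogenase and is known as the isoform insensitive to calcium. It was at 36.1 and 33.8 CPM in Pml-/- cells and at 41.0 and 42.9 CPM in wild-type cells (log2 change -0.26, SE 0.07, limma adjusted p = 0.0465). The call ended without Pml-/- replicate 2 (0.236) and without either wild-type library (0.0732 and 0.172), with both other scalings, with no filter (0.0944) and with both count tests, and Pdp2 lies on chromosome 8, whose median is given above. For Pdp2 the authors' deposited table gives a false discovery rate of 0.0276. Pdp1, the isoform that calcium stimulates, was at 5.71 and 5.67 CPM in Pml-/- cells and at 8.06 and 6.68 CPM in wild-type cells (log2 change -0.32, SE 0.13, limma adjusted p = 0.19). Among partners of the channels and of the permeability pore 0 of 9 passed, with 0 at an unadjusted p under 0.05 and 0 by edgeR and by DESeq2. Hk2, a hexokinase that docks on the channels, was at 399 and 386 CPM in Pml-/- cells and at 396 and 452 CPM in wild-type cells (log2 change -0.11, limma adjusted p = 0.292). Its value rested on the wild-type libraries, at -0.20 without wild-type replicate 1 (limma adjusted p = 0.0488) and -0.01 without wild-type replicate 2 (0.949).

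**Figure D4:**
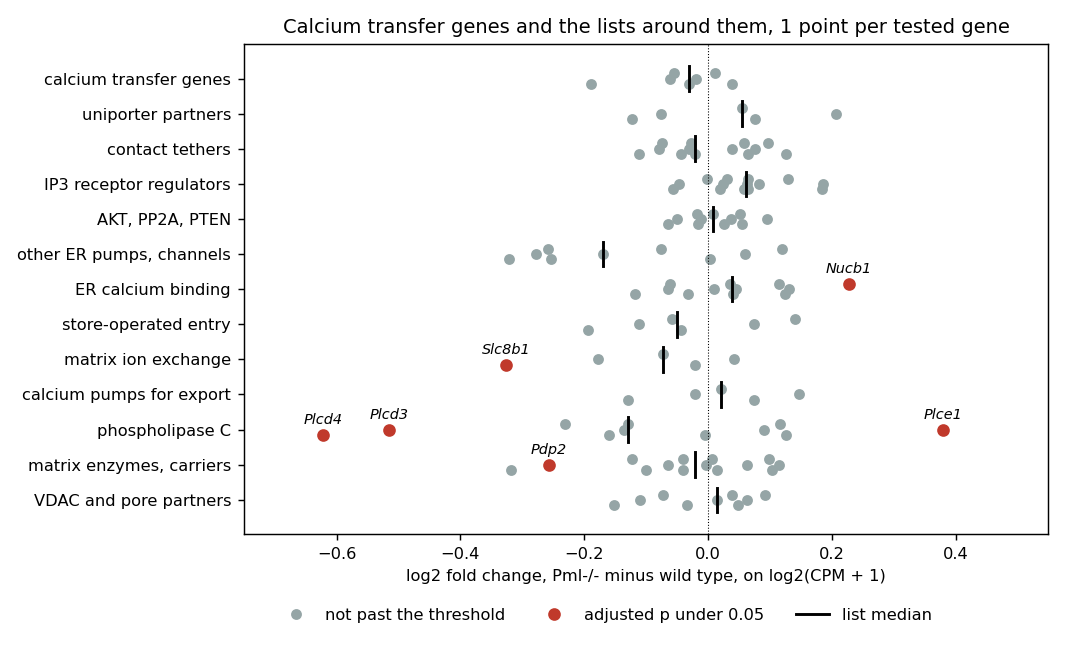
Log2 fold change (Pml-/- minus wild type, on log2(CPM + 1), horizontal axis) of each tested gene, with the calcium transfer genes on top and the 12 surrounding lists below; black bars are list medians and red points passed an adjusted p of 0.05. No calcium transfer gene is red, and 6 of the 114 surrounding genes are.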

How the data were processed

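The submitters' processing notes name cutadapt, TopHat, edgeR and the mm10 build; no source used here gives the annotation, the use of strand or the handling of reads that match several genes. The authors deposited 1 table with CPM per library beside edgeR's p-value, false discovery rate, average abundance and fold change, both of the last on a log2 scale. Their fold change is wild type over knockout: its sign matched the CPM means at each of the 824 genes they called that average 1 CPM or more. All deposited CPM values were whole multiples of 1 read (100% within 0.001 reads), which gave back the read totals.

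Limma-trend (limma 3.58.1, R 4.3.3) was fitted on log2(CPM + 1) over genes averaging 1 CPM or more, genotype as the only term, with Benjamini-Hochberg adjustment at 0.05. EdgeR 4.0.16 (quasi-likelihood, TMM) and DESeq2 1.42.0 on recovered reads were alternatives, with other pseudocounts, filters, scalings, a replicate block and each library left out. The tests were checked on simulated data with changes larger than those of the tested calcium transfer genes. That check does not show whether changes as small as theirs would be found. Replicate pairs differed beyond counting error (chi-square per degree of freedom 7.37 in Pml-/- and 5.68 in wild type), more than 1 library read again would; this does not show that they are separate cultures. The members and lists were chosen with earlier results of these data known. Named were all members, Pml, up to 4 called genes per list or else its gene of smallest adjusted p, and 3 genes nearest in profile to Mcu; other list genes were named for their known role after their values were seen. List genes that are not named enter only the counts and medians of their lists. Coordinates come from the RefSeq annotation of GRCm38.p6, in which 23204 symbols matched directly and 1095 by a unique older symbol. Counting error is large for Itpr2, and the number of libraries limits the precision of the other members.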

Additional observations from a re-analysis of the deposited data

How the results depend on the processing

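The count of calcium transfer genes past the threshold was 0 in the main analysis and under all 13 alternatives. Over all genes it was 687, with 298 on no filter, 1198 with the replicate number as a block and 367 to 869 without each library (367 without Pml-/- replicate 2, 439 without wild-type replicate 1). In the surrounding lists it was 6, with 2 on no filter, 3 with DESeq2, 8 with the replicate block and 2 to 6 without each library (2 without Pml-/- replicate 2). Same-numbered libraries deviated together only weakly (correlation 0.12) and the labels do not pair them; under the block Atp2a3 passed (adjusted p = 0.0174) and Mcu did not (0.11). Signs changed for genes near 0 when libraries were left out, with ranges of -0.13 to 0.022 for Itpr3, -0.0024 to 0.026 for Atp2a2, -0.039 to 0.00090 for Vdac1 and -0.062 to 0.00033 for Vdac3. With a library left out, its lone partner is assumed to vary like the other group. The causes were not tested.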
